A study of Mus musculus with 6 samples.

Results

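Amino acid transporters were taken as the genes of the solute carrier families Slc1, Slc3, Slc7, Slc36, Slc38, and Slc43, together with 5 genes of the Slc6 family (Slc6a6, Slc6a9, Slc6a14, Slc6a19, and Slc6a20a). They were chosen by a rule on gene symbols, which uses no measured value and leaves out 1 Slc7 gene. The rule gave 45 of the 26167 genes measured. All 45 were matched by symbol to the RefSeq annotation of GRCm38.p6, whose coordinates are given here. The question was how the tumors' expression of these carriers differed after treatment with sorafenib (Sora), a multikinase inhibitor used against hepatocellular carcinoma (HCC).

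Tumors were grown from Hepa1-6, a mouse hepatoma cell line that the sample labels write as Hep1-6, injected under the skin of female C57BL/6J mice that were 6 to 8 weeks old when bought. The Sora group received 10 mg/kg ip on days 9, 11, 13, and 15. No transgene or deletion is named for either group, and what the control mice received and the day the tumors for RNA were taken are not given in the sources used here. Bulk RNA was sequenced from 3 control tumors (numbers 1, 3, and 4 in the labels) and 3 Sora-treated tumors (numbers 2, 3, and 4), 1 library each. All tumors came from 1 cell line grown outside the liver, and bulk RNA holds the cells of the host as well. That each library came from a separate mouse is not stated, so p-values here measure the spread between these libraries.

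Amino acids cross membranes mainly through carrier proteins, which differ in the amino acids they take and in the gradient they use. Some carriers couple uptake to sodium or protons, others exchange 1 amino acid for another, and the Slc3 heavy chains bring Slc7 light chains to the cell surface. Tumor cells draw glutamine, serine, arginine, and leucine through such carriers for growth and for the signaling of mTORC1, and hepatocytes use them to feed the urea cycle and the synthesis of glutamine.

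Levels are given as CPM, a gene's counts per 1e6 reads of the tumor after TMM scaling, which sets the trimmed mean of ratios between libraries to 1. Levels are compared between genes only as FPKM, which also divides by gene length. Libraries held between 31073830 and 36205814 counted reads, and 3 reads corresponded to 0.0822 to 0.0959 CPM. Deposited counts were at hand for 5 tumors, and those of Sora-treated tumor 4 were worked back from FPKM. Genes were called at an adjusted p under 0.05 in edgeR's quasi-likelihood test over 16513 genes, and 321 of them were up-regulated and 222 down-regulated in Sora-treated tumors, 3.29 percent in all. The 8 hepatoma markers were all detected, with a summed level of 6148 to 7965 CPM in control and 6392 to 7015 CPM in Sora-treated tumors. Among them Ttr (log2 fold change -2.15, adjusted p 0.0055) and Alb (-0.55, adjusted p 0.041) fell, and Apoa1 (1.03, adjusted p 0.047) rose.

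Of the 45 transporter genes, 24 had a mean of at least 1 FPKM over the 6 tumors and 21 were below it. Slc38a2, a sodium-coupled carrier of small neutral amino acids including glutamine and alanine, stood highest, with 96.5, 92.8, and 105 FPKM in the control tumors and 115, 97.5, and 104 FPKM in the Sora-treated tumors. It lay above every other transporter in each tumor and made up 27.4, 26.4, and 29.1 percent of the summed FPKM of the 45 genes in the control tumors and 32.0, 28.2, and 30.5 percent in the Sora-treated tumors. Next came Slc38a10 (35.1 to 37.9 FPKM over all tumors) and Slc1a5 (31.9 to 36.3 FPKM), whose ranges overlapped. Slc6a6, Slc7a2, Slc3a2, and Slc7a1 followed between 14.8 and 25.1 FPKM. Every value of Slc6a6 (18.5 to 23.5 FPKM) lay above every value of Slc3a2 (up to 18.3 FPKM), and the ranges of Slc7a2 and Slc7a1 overlapped both. Slc7a7, Slc7a5, and Slc1a4 came next, with overlapping ranges between 9.66 and 14.7 FPKM. These 10 genes together held 78.9 to 80.1 percent of the summed FPKM in control and 79.9 to 82.1 percent in Sora-treated tumors. The sum over all 45 genes was 352, 351, and 362 FPKM in control tumors (355 ± 5.71, SD, n = 3) and 360.2, 346, and 340.4 FPKM in Sora-treated tumors (349 ± 10.2, SD, n = 3). The groups overlapped in that sum.

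**Figure D1:**
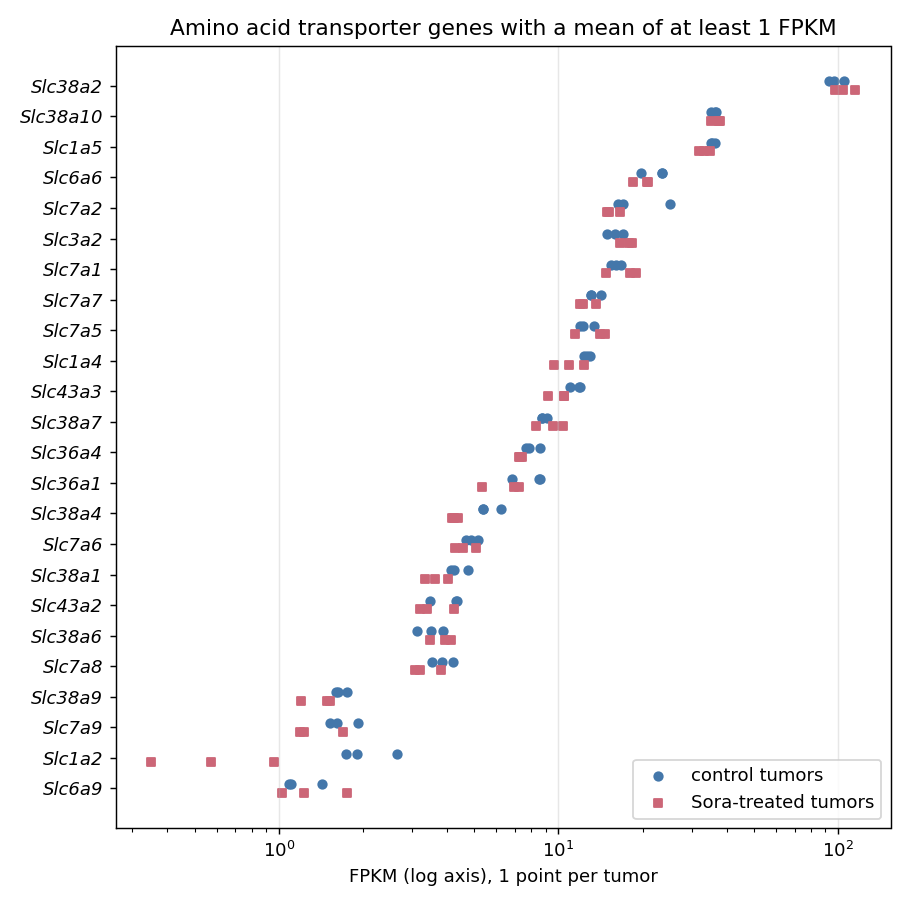
FPKM (log axis) of the 24 amino acid transporter genes with a mean of at least 1 FPKM, 1 point per tumor, with control tumors as blue circles and Sora-treated tumors as red squares. Slc38a2 lies highest, at 92.8 to 115.3 FPKM, and Slc1a2 is the gene whose 2 groups stand farthest apart, at 1.74 to 2.64 FPKM in control and 0.350 to 0.962 FPKM in Sora-treated tumors.

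Between treated and control tumors, 2 transporters fell and none rose. The glutamate carrier Slc1a2 was down-regulated to a fold of 0.302, and Slc38a4, a sodium-coupled carrier of neutral amino acids, to a fold of 0.758. Of the 45 genes, 35 had at least 10 counts in at least 3 tumors and were tested. The 2 falls are 5.71 percent of those tested, where 1.34 percent of all tested genes were called down. No transporter was called up by edgeR, where 1.94 percent of all tested genes were, none was higher at an unadjusted p under 0.05 (2 without the count filter), and none was called up by DESeq2 or by limma on FPKM. The other 33 tested genes were not called, with log2 fold changes from -0.57 to 0.82. The median log2 fold change over the 35 genes was -0.07, beside 0.00 over all tested genes, and 17 lay above 0 and 18 below. Among the 24 genes with a mean of at least 1 FPKM, 16 lay below 0 and 8 above, with a median of -0.13, while 6189 of all 12218 genes at that level lay below 0, with a median of 0.00. At an unadjusted p under 0.05, 5 transporters were lower and 0 higher, beside 8.69 percent and 8.53 percent of all tested genes. Among the 35 tested, the groups did not overlap in 8 transporters that were lower and in 1 that was higher after Sora, against 11.6 percent and 10.6 percent of all tested genes.

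**Figure D2:**
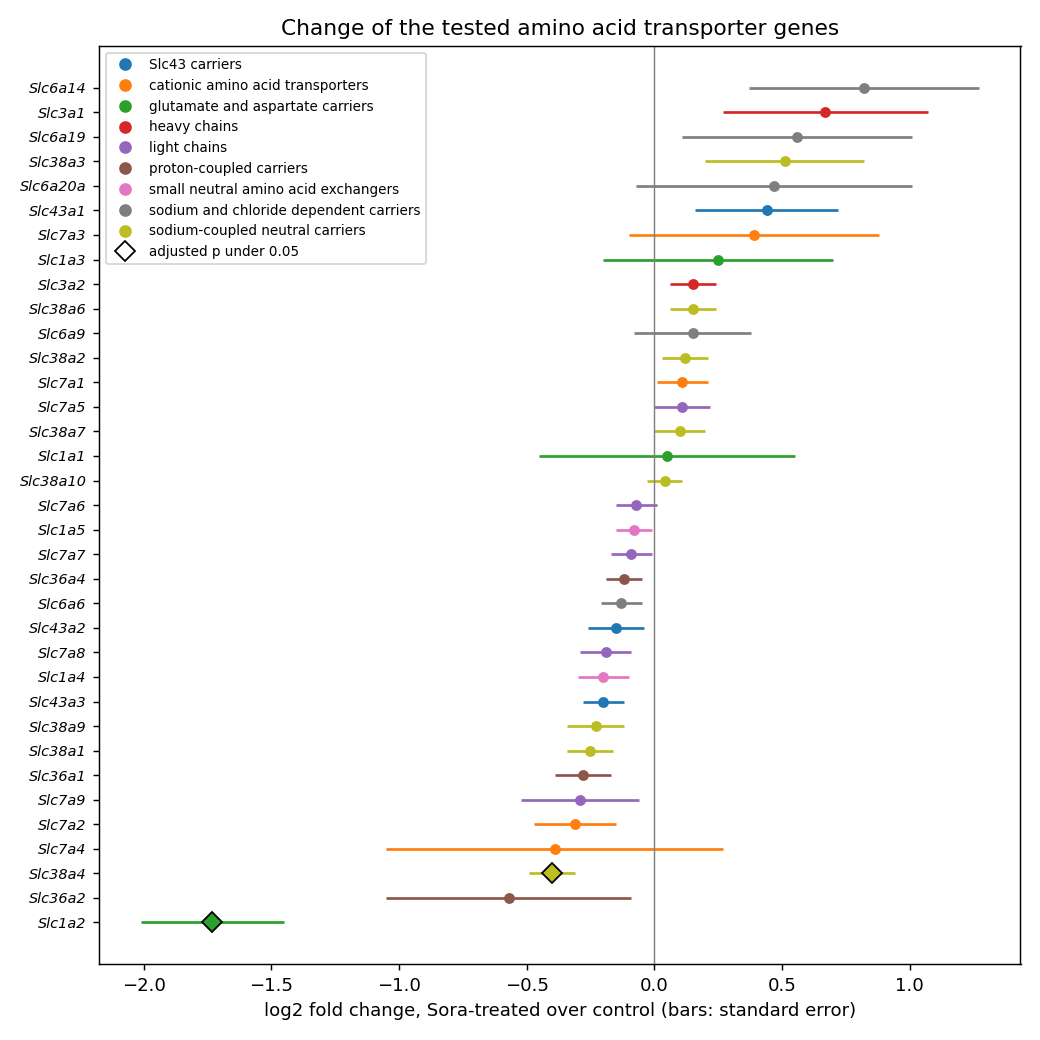
Log2 fold change (Sora-treated over control tumors, edgeR, n = 3 and 3) of the 35 tested amino acid transporter genes, with bars of 1 standard error, colored by transporter group, and diamonds for an adjusted p under 0.05. Only the diamonds of Slc1a2 (-1.73) and Slc38a4 (-0.40) passed the test, and most other points lie within 0.5 of 0.

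Slc1a2 encodes a high-affinity sodium-driven carrier of glutamate and aspartate, known from astrocytes and, in the liver, from hepatocytes around the central vein, which also make glutamine from glutamate and ammonia. It lies at chr2:102658239-102790784. It had 25.0, 24.2, and 35.5 CPM in the control tumors and 4.70, 12.9, and 7.97 CPM in the Sora-treated tumors. Every Sora-treated tumor lay below every control tumor, and among the treated tumors number 3 was the highest. The means were 28.2 ± 6.31 CPM and 8.52 ± 4.13 CPM (SD, n = 3 each), a log2 fold change of -1.73 (SE 0.28, adjusted p 0.015). This was the 20th largest fall among the 222 genes called down, and 1 of the 55 genes called with a fall of more than 2-fold (0.333 percent of those tested). These levels rest on 804, 787, and 1295 reads in the control tumors and 147, 433, and 264 reads in the treated tumors. An antisense gene inside the Slc1a2 locus, Gm13872, had 1 read in the 6 tumors together. The adjusted p was 0.060 without control tumor 4 and 0.096 without Sora-treated tumor 4, with log2 fold changes of -1.53 and -1.68, and 0.0015 to 0.033 when any other tumor was left out. It was 0.17 in limma on the FPKM of all genes and 1.7e-06 to 0.042 under the other settings tried. On the log2(FPKM + 1) scale of limma, which understates the change of low genes, the log2 fold change was -0.93. In bulk tumor RNA, fewer cells that make a transcript and less of it in each cell cannot be told apart.

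Slc38a4 lies at chr15:96994816-97055956, on the same stretch of chromosome 15 as Slc38a1 (chr15:96571418-96643438) and Slc38a2 (chr15:96687392-96699728). All 3 encode sodium-coupled carriers of small neutral amino acids, and Slc38a4 is an imprinted gene known for expression in liver and placenta. It had 26.7, 24.1, and 23.5 CPM in the control tumors and 18.2, 18.4, and 19.7 CPM in the Sora-treated tumors. The groups stood apart, with little spread within either, at 24.8 ± 1.67 and 18.8 ± 0.841 CPM (SD, n = 3 each). The log2 fold change was -0.40 (SE 0.09, adjusted p 0.042). The call was lost without any 1 of the 6 tumors, with adjusted p from 0.053 without Sora-treated tumor 3 to 0.16 without Sora-treated tumor 2 and log2 fold changes from -0.44 to -0.34. It was also lost in limma on FPKM, with adjusted p of 0.068 to 0.19.

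Slc38a1 had 41.2, 38.5, and 36.2 CPM in control and 31.9, 35.3, and 30.5 CPM in Sora-treated tumors. The groups did not overlap, but the difference did not pass the adjusted threshold (log2 fold change -0.25, SE 0.09, adjusted p 0.17). Slc38a2, the most abundant of the neighbors, had 439, 443, and 488 CPM in control and 534, 450.1, and 499 CPM in Sora-treated tumors. Its groups overlapped, and the estimate lay above 0 (0.12, SE 0.09, adjusted p 0.55). Whether Slc38a4 and Slc38a2 differ from each other in their response was not tested.

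The sequences before the annotated transcription starts of Slc1a2, Slc38a4, and Slc38a2 are shown so that the promoters of the 2 down-regulated genes can be set beside that of the abundant neighbor that was not called. Each is the 250 bases upstream of a start in RefSeq's annotation of GRCm38.p6, 5′ to 3′ on the strand of the gene. The window of Slc1a2 is chr2:102706188-102706437 (plus strand) and belongs to a start within the span of the gene, that of Slc38a4 is chr15:97055957-97056206 (minus strand), the outermost of its 3 windows, and that of Slc38a2 is chr15:96699729-96699978 (minus strand). Capitals mark matches, on either strand, to CTTTGAT (the core bound by TCF/LEF factors), TGATGNAA (the core of the amino acid response element bound by ATF4), and to 3 general promoter motifs. Those were the TATA box, searched as the letters TATAAA, the binding letters of nuclear factor Y, which are CCAAT, and the GC box bound by Sp factors, which was searched as GGGCGG.
Slc1a2: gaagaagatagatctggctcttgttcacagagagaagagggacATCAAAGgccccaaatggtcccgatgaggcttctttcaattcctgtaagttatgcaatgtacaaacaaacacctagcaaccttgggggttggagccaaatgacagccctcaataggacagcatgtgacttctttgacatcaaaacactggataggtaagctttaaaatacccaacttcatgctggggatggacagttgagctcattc
Slc38a4: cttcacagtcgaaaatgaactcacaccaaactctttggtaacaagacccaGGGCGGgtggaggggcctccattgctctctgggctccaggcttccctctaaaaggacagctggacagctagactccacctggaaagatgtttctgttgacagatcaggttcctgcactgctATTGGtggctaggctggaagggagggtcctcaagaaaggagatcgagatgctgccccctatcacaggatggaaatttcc
Slc38a2: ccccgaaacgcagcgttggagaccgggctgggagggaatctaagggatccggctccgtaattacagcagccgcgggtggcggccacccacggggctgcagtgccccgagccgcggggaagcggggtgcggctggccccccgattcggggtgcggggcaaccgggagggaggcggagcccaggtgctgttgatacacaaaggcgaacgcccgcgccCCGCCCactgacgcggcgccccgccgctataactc
The Slc1a2 window held 1 match to CTTTGAT on the opposite strand and had 44.8 percent G and C. The Slc38a4 window held a CCAAT on the opposite strand and a GC box (52.8 percent G and C), and the Slc38a2 window held a GC box on the opposite strand (72.0 percent G and C). The median over all 32851 windows was 52.4 percent. Of the 34 transporters with a window, 4 held CTTTGAT (Slc1a2, Slc38a9, Slc38a10, and Slc7a1), beside 3.72 percent of all 27025 genes, and 1 held TGATGNAA (Slc7a7), beside 3.91 percent. A GC box was found in 24 of the 34, beside 35.4 percent of all genes, CCAAT in 11 beside 37.5 percent, and TATAAA in 6 beside 14.3 percent. No matches overlapped in the windows shown, and a match of letters shows no binding. Bases outside the windows, such as those after the start, were not searched, so a gene without a match may hold the motif elsewhere.

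The other glutamate and aspartate carriers were scarce. Slc1a3 and Slc1a1 were each under 1 FPKM, with log2 fold changes of 0.25 (SE 0.45) and 0.05 (SE 0.50), and Slc1a6 and Slc1a7 had too few reads to be tested. The summed FPKM of the 5 glutamate and aspartate carriers was 2.28, 2.14, and 3.08 in the control tumors and 0.800, 1.53, and 0.870 in the Sora-treated tumors. The groups of this sum did not overlap, and Slc1a2 held most of it in control. Sums of the Slc43 carriers, of the proton-coupled Slc36 carriers, and of Slc1a4 with Slc1a5 were also lower after Sora without overlap. Those of the other kinds of transporter overlapped between treated and control tumors.

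Slc1a5, the main glutamine exchanger of many tumors, and Slc1a4, an exchanger of serine and alanine, belong to the same family but carry small neutral amino acids. Slc1a5 had 97.9, 100.4, and 96.4 CPM in control and 91.3, 95.9, and 91.1 CPM in Sora-treated tumors (log2 fold change -0.08, SE 0.07, adjusted p 0.6). Slc1a4 had 48.6, 52.4, and 48.2 CPM and 37.7, 48.2, and 44.2 CPM (-0.20, SE 0.10, adjusted p 0.32). Both were lower in every treated tumor than in any control tumor, although control tumor 4 and Sora-treated tumor 3 were equal for Slc1a4 in the digits shown, and neither was called.

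The heavy chain Slc3a2 (CD98hc, chr19:8706882-8723369) carries light chains for large neutral and cationic amino acids to the surface. It had 136, 163, and 148 CPM in control and 154, 166, and 176 CPM in Sora-treated tumors. The groups overlapped through control tumor 3, and the difference was not called (log2 fold change 0.15, SE 0.09, adjusted p 0.42). The other heavy chain, Slc3a1, pairs with Slc7a9 for cystine and cationic amino acids and was near 1 CPM or below, with 0.561, 0.706, and 0.411 CPM in control and 1.15, 0.774, and 0.755 CPM in treated tumors. It was the 1 tested transporter whose treated tumors all lay above the control tumors, without passing the test (0.67, SE 0.40, adjusted p 0.43), and Prepl overlaps it on the opposite strand, so with the use of strand not given its reads are uncertain.

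Of the 8 light chains that the rule gave, 5 were tested and none was called, also at an unadjusted p under 0.05. Slc7a5, which takes up leucine and other large neutral amino acids, had 41.8, 48.3, and 41.8 CPM in control and 51.3, 39.8, and 51.2 CPM in treated tumors (0.11, SE 0.11, adjusted p 0.67). Slc7a8, a second carrier of large neutral amino acids, had 29.2, 28.2, and 32.3 CPM and 23.8, 29.2, and 25.7 CPM (-0.19, adjusted p 0.37). Both genes had overlapping groups, with estimates on opposite sides of 0. Slc7a6 and Slc7a7 exchange cationic for neutral amino acids. Slc7a6 had 61.2, 61.5, and 66.2 CPM and 65.2, 54.5, and 60.7 CPM (adjusted p 0.75), and Slc7a7 had 43.3, 45.4, and 47.7 CPM and 41.1, 45.7, and 41.6 CPM (adjusted p 0.64), again with overlap. Slc7a9, the partner of Slc3a1, had 3.40, 4.51, and 3.67 CPM in control and 2.72, 3.84, and 2.90 CPM in treated tumors (adjusted p 0.58), and its groups overlapped as well. The sum over 5 light chains that pair with Slc3a2 (Slc7a5, Slc7a6, Slc7a7, Slc7a8, and Slc7a10) does not hold the Slc7 gene left out by the rule. That sum was 34.1, 34.8, and 35.6 FPKM in control and 35.2, 33.4, and 34.0 FPKM in treated tumors. The FPKM of Slc3a2 over that sum was 0.439, 0.489, and 0.448 in control and 0.471, 0.538, and 0.538 in treated tumors, and the groups overlapped.

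Cationic amino acids, arginine among them, enter through Slc7a1 and Slc7a2, and Slc7a2 is the form known from liver. Slc7a1 had 116, 117, and 123 CPM in control and 139, 108, and 137 CPM in treated tumors (0.11, SE 0.10, adjusted p 0.62). Slc7a2 had 151, 233, and 147 CPM and 135, 136, and 156 CPM (-0.31, SE 0.16, adjusted p 0.34). Control tumor 3 stood high for Slc7a2, and the other tumors of both groups lay together. Slc7a3 and Slc7a4 were under 1 FPKM and not called, and Slc7a14 was not tested.

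Among the sodium and chloride dependent carriers, Slc6a6, which takes up taurine, had 179, 157, and 181 CPM in control and 163, 160.2, and 148 CPM in treated tumors, with overlap (adjusted p 0.44). Slc6a14, a carrier of broad range found in epithelia, had the highest estimate of all tested transporters, 0.82 (SE 0.45, adjusted p 0.39). Its levels were 2.15, 0.737, and 1.07 CPM in control and 3.64, 1.79, and 1.57 CPM in treated tumors, which overlapped through control tumor 1. The 6 keratinocyte markers summed to 1047, 313, and 391 CPM in control and 943, 669, and 662 CPM in treated tumors, and the part of skin in the Slc6a14 values was not tested. Slc6a9 (glycine), Slc6a19, and Slc6a20a were not called, with log2 fold changes of 0.15, 0.56, and 0.47, and Slc6a20a has a near-identical copy, Slc6a20b.

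The 3 tested proton-coupled carriers all had estimates below 0, and none was called although Slc36a1 was lower at an unadjusted p under 0.05. Slc36a1, which exports amino acids from lysosomes, had 43.8, 36.9, and 44.9 CPM in control and 36.5, 37.9, and 29.0 CPM in treated tumors (-0.28, SE 0.11, unadjusted p 0.032, adjusted p 0.23). Its groups overlapped through control tumor 3 and Sora-treated tumor 3. Slc36a4 had 48.1, 45.2, and 44.6 CPM and 41.1, 41.3, and 44.0 CPM (adjusted p 0.44), with no overlap. Slc36a2 was under 1 FPKM (-0.57, SE 0.48), and Slc36a3 was not tested. Slc38a9, the lysosomal carrier through which arginine is sensed by mTORC1, had 19.3, 18.9, and 18.0 CPM in control and 16.7, 17.2, and 13.9 CPM in treated tumors, without overlap and without passing the test (-0.23, SE 0.11, adjusted p 0.3).

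In the Slc43 family, Slc43a3, which carries purine nucleobases rather than amino acids, had 36.3, 40.9, and 39.9 CPM in control and 34.9, 35.1, and 31.8 CPM in treated tumors. The groups did not overlap, and the difference was not called (-0.20, SE 0.08, adjusted p 0.24). Slc43a1 and Slc43a2, which carry large neutral amino acids, had estimates of 0.44 and -0.15 and overlapping groups. In the Slc38 family, Slc38a10 had 187, 205, and 198 CPM in control and 205, 206, and 199 CPM in treated tumors (adjusted p 0.81). Slc38a3, Slc38a6, and Slc38a7 had estimates of 0.51, 0.15, and 0.10, none of them called.

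The 10 transporters that were left out of the main test had at most 16 reads in any tumor. They were Slc1a6, Slc1a7, Slc7a10, Slc7a13, Slc7a14, Slc7a15, Slc36a3, Slc38a5, Slc38a8, and Slc38a11. Slc7a10 had 3, 8, and 4 reads in control and 8, 16, and 14 reads in treated tumors, and Slc7a14 had 0, 0, and 0 and 1, 5, and 1 reads. The treated counts of Slc7a10 were at or above the control counts, meeting at 8 reads in control tumor 3 and Sora-treated tumor 2, and Slc7a14 was within a few reads of 0 throughout. In CPM the groups of Slc7a10, Slc7a14, and Slc38a8 did not overlap, with treated tumors higher on these few reads.

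**Figure D3:**
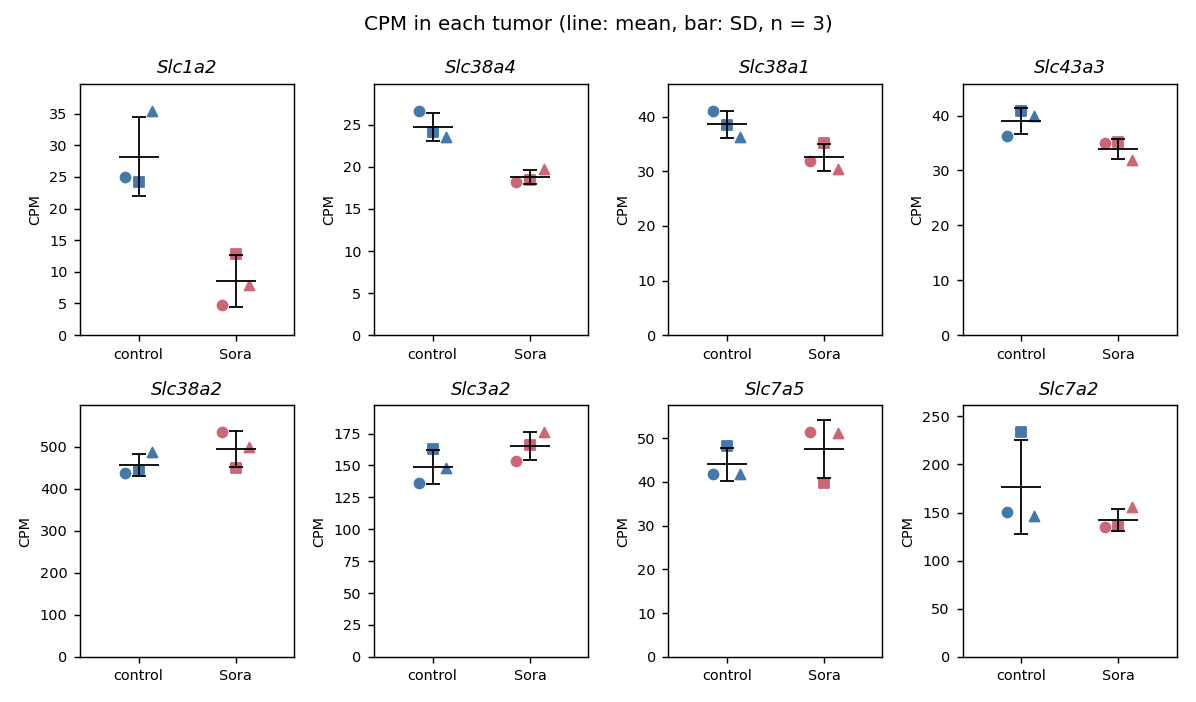
CPM (linear axes from 0) of 8 amino acid transporter genes in each tumor, with circle, square, and triangle for the tumors of a group in the order of their label numbers, a line at the mean, and a bar of 1 SD (n = 3). Slc1a2 falls from 24.2 to 35.5 CPM in control to 4.70 to 12.9 CPM in Sora-treated tumors, Slc38a4, Slc38a1, and Slc43a3 are lower without overlap, and Slc38a2, Slc3a2, Slc7a5, and Slc7a2 overlap between groups.

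The spread between tumors of 1 group differed among the transporters. Over the 24 with a mean of at least 1 FPKM, the median coefficient of variation of CPM was 6.56 percent in control and 8.74 percent in Sora-treated tumors, beside 7.60 and 7.67 percent over the 12218 genes at that level. Slc1a2 had 22.3 percent in control and 48.4 percent in treated tumors, and Slc7a2 had 27.7 and 8.17 percent. Slc1a5 had 2.10 percent in control, the lowest of the 24.

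The other genes of amino acid handling were read from 5 lists. Over all tested genes, 49.9 percent had estimates above 0, 1.94 percent were called up and 1.34 percent down, and 8.53 percent were higher and 8.69 percent lower at an unadjusted p under 0.05. Among 39 tested enzymes of amino acid synthesis and interconversion, 3 fell and none rose in edgeR (6 lower and 2 higher at an unadjusted p under 0.05), with a median log2 fold change of 0.02. Glul, glutamine synthetase, had 342, 365, and 380.0 CPM in control and 240.1, 291, and 240.5 CPM in treated tumors (-0.49, SE 0.09, adjusted p 0.021). Ass1, which joins citrulline and aspartate on the way to arginine, had 147, 222, and 141 CPM and 95.3, 106, and 90.4 CPM (-0.81, SE 0.15, adjusted p 0.021), and, like Slc7a2, it was highest in control tumor 3. Cbs, which makes cystathionine from homocysteine and serine, had 4.70, 4.64, and 5.24 CPM and 1.95, 2.50, and 2.66 CPM (-1.03, SE 0.22, adjusted p 0.031). All 3 enzymes had every treated tumor below every control tumor.

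Among 22 tested carriers of amino acids and related solutes outside the rule, 1 rose and 1 fell, with a median of -0.10. The creatine carrier Slc6a8 had 80.2, 89.7, and 84.5 CPM in control and 116, 111, and 136 CPM in treated tumors (0.51, SE 0.09, adjusted p 0.018). Slc17a5, the lysosomal carrier of sialic acid, had 25.5, 25.6, and 25.6 CPM and 18.5, 21.5, and 17.6 CPM (-0.41, SE 0.10, adjusted p 0.046). Neither has an amino acid as its best-known cargo, and the groups of both stood apart. Of 33 genes of amino acid sensing upstream of mTORC1, 1 fell and none rose (2 lower and 1 higher at an unadjusted p under 0.05), with a median of 0.02. It was Sesn3, of the sestrin family that holds mTORC1 back when amino acids are short, with 54.5, 52.5, and 53.4 CPM in control and 33.4, 45.2, and 35.0 CPM in treated tumors (-0.50, SE 0.11, adjusted p 0.036).

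Of 19 cytosolic aminoacyl-tRNA synthetases, 17 had estimates above 0, beside 49.9 percent of all tested genes, and 1 was called up, beside 1.94 percent, with a median of 0.08. At an unadjusted p under 0.05, 2 were higher and 0 lower, near the 8.53 percent of all tested genes that were higher. Cars, the enzyme for cysteine, had 98.5, 115, and 103 CPM in control and 191, 150.5, and 223 CPM in treated tumors (0.83, SE 0.13, adjusted p 0.012). Of 18 regulators and markers of ATF4, the transcription factor of the response to short amino acids and to stress of the endoplasmic reticulum, 2 rose and none fell (7 higher and 0 lower at an unadjusted p under 0.05, beside 8.53 and 8.69 percent of all tested genes), with a median of 0.10. The stress factor Ddit3 (CHOP) had 27.0, 41.2, and 28.1 CPM in control and 53.0, 56.9, and 80.5 CPM in treated tumors (0.98, SE 0.18, adjusted p 0.021). Eif4ebp1, a brake on translation that mTORC1 releases, had 80.7, 100.4, and 89.9 CPM and 122, 112, and 131 CPM (0.43, SE 0.09, adjusted p 0.039). The groups did not overlap in Cars, Ddit3, or Eif4ebp1. Atf4 itself (0.25, adjusted p 0.19) and Asns, asparagine synthetase (0.07, adjusted p 0.73), named here after their values were seen, were not called.

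Without Sora-treated tumor 4, the tumor whose counts were computed from FPKM, none of these 9 genes passed the threshold in edgeR, with adjusted p from 0.062 (Cars) to 0.20 (Slc17a5). All 9 passed without Sora-treated tumor 3, 6 without control tumor 3, 3 without control tumor 1 or without Sora-treated tumor 2, and 2 without control tumor 4. The calls over all genes, 543 in the main test, shifted in these fits as well. Leaving out 1 treated tumor gave 117 calls for number 2, 1145 for number 3, and 5 for number 4. Leaving out 1 control gave 174 for number 1, 316 for number 3, and 176 for number 4.

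**Figure D4:**
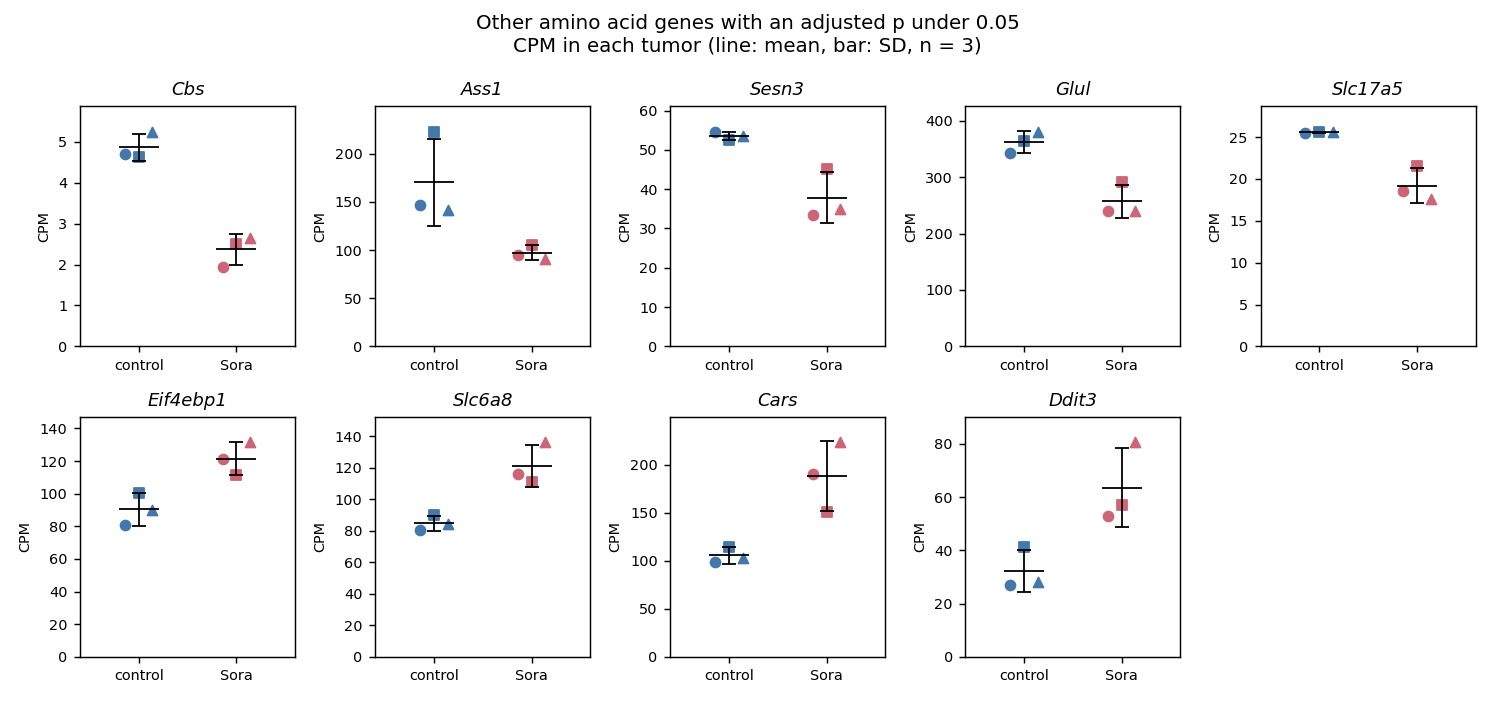
CPM (linear axes from 0) in each tumor of the 9 other amino acid genes with an adjusted p under 0.05, with symbols, mean lines, and SD bars as for the transporters (n = 3 per group). Cbs, Ass1, Sesn3, Glul, and Slc17a5 are lower and Eif4ebp1, Slc6a8, Cars, and Ddit3 higher in every Sora-treated tumor than in any control tumor.

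The summed levels of marker genes of some other cells also stood apart between the groups. Summed CPM of 7 T cell markers was 171 to 193 in control and 138 to 149.7 in Sora-treated tumors, of 7 macrophage markers 1721 to 2083 and 1450.3 to 1699, and of 6 fibroblast markers 5572 to 5742 and 4096 to 5069.9, all without overlap and lower after Sora. The sum of 3 red blood cell markers was lower as well (38.9 to 104 and 27.6 to 35.6 CPM), and that of 6 neutrophil markers was higher (69.8 to 78.9 in control and 102 to 157 CPM after Sora). The gene test called 1 gene down in the T cell list (Cd6), 1 down in the red blood cell list (Hba-a1), 1 up in the neutrophil list (S100a9), and none in the macrophage or fibroblast lists, where 5 and 2 genes were lower at an unadjusted p under 0.05. Those 2 fibroblast genes were the collagens Col1a1 and Col1a2 (log2 fold changes -0.42 and -0.47), whose groups did not overlap. The other fibroblast markers overlapped between groups, at -0.03 (Pdgfra), 0.03 (Dcn), -0.22 (Lum), and -0.21 (Fap). The summed levels of the endothelial, skeletal muscle, B cell, and hepatoma markers overlapped between groups. Those of 5 adipocyte markers overlapped too (22.2 to 34.1 and 32.6 to 54.2 CPM), but their mean log2(CPM + 1) was higher in every treated tumor, and 3 of the 4 tested were higher at an unadjusted p under 0.05. No marker was at 0 in every tumor. The part of the cell mixture in the changes of Slc1a2, Slc38a4, and the other genes was not tested.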

How the data were processed

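RNA-seq libraries (1 per tumor) of 3 control tumors and 3 tumors treated with Sora were analyzed. The authors deposited raw counts per gene for 5 tumors and FPKM (counts scaled by the length of each gene and by library total) for all 6. The paper names Bowtie2 and GRCm38, while the processing notes with the labels name fastp, HISAT2, HTSeq, and GRCm39. The annotation and the use of strand are not given in the sources used here, which leaves genes that overlap others or have near-identical copies uncertain. Sora-treated tumor 4 had FPKM only, and its counts were worked back from them with gene lengths taken from the other libraries. All 20951 values were within 0.001 of a whole number, and 342 genes with 512 reads and no known length were left at 0. In the other 5 tumors the same calculation returned the total and the count of every gene with a known length, and 460 to 556 genes per tumor had reads and no length from the other libraries.

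A gene was tested if 3 or more tumors had 10 or more counts. The two-sided quasi-likelihood test of edgeR 4.0.16 was run in R 4.3.3 on TMM-scaled libraries (glmQLFit with robust=FALSE, then glmQLFTest), and p-values were adjusted over 16513 genes by Benjamini-Hochberg. Standard errors were the absolute log2 fold change over the root of F. The biological coefficient of variation was 0.132. The floor of 3 reads covers counting error only. Alternatives were DESeq2 1.42.0, other scalings and filters, leaving out each tumor, a block for the replicate number, and limma 3.58.1 on log2(FPKM + 1) or log2(FPKM + 0.1). The scripts were tested on simulated data.

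The transporters and all lists were chosen with earlier results of these data known. Values per tumor are given for transporters with an adjusted p under 0.05, those with an unadjusted p under 0.05 and groups apart, the 10 with the highest FPKM, both heavy chains, and the light chains with a mean of at least 1 FPKM. A few others were added where a group was described, after their values were seen. From the lists, the genes with an adjusted p under 0.05 are named. Sequences are from RefSeq (GRCm38.p6), and overlapping genes from GENCODE M21. The labels name no sequencing batch.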

Additional observations from a re-analysis of the deposited data

How the results depend on the processing

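The number of genes called (543, with 321 up and 222 down) was 528 to 568 with the size factors of DESeq2, total counts, upper quartile scaling, or a filter of at least 10 counts in every tumor. It was 1194 (619 up, 575 down) by DESeq2, 1147 (570 up, 577 down) without a filter, 286 (180 up, 106 down) by limma on log2(FPKM + 1), 252 (166 up, 86 down) on log2(FPKM + 0.1), 0 on log2(FPKM + 1) of all genes (1588 up and 1527 down at an unadjusted p under 0.05), 2844 (1409 up, 1435 down) at an unadjusted p, and 5 (without Sora-treated tumor 4) to 1145 (without Sora-treated tumor 3) with 1 tumor left out. The 2 transporters called down became 1 by limma with either pseudocount, 0 by limma on all genes (3 at an unadjusted p), 5 at an unadjusted p, and 0 to 1 with 1 tumor left out (0 without control tumor 4 or without Sora-treated tumor 4, 4 and 2 at an unadjusted p). None was called up at an adjusted p under 0.05 under any of these settings, and at an unadjusted p 2 were higher (and 7 lower) without a filter, 1 by limma on all genes, and 0 to 2 with 1 tumor left out. The median log2 fold change of the transporters ranged from -0.14 to -0.01. Its lowest values, -0.13 and -0.14, came from the limma fits on genes with at least 1 FPKM in 3 tumors, which hold fewer transporters. In the main test the transporters with a mean of at least 1 FPKM also had a median of -0.13. Calls in the 5 lists (4 up, 5 down) became 7 up by DESeq2, 8 up without a filter, 3 down by limma with either pseudocount, 0 and 0 by limma on all genes (16 up and 11 down at an unadjusted p), 15 up and 11 down at an unadjusted p, and 0 to 7 in either direction with 1 tumor left out. Under these settings Slc1a2, Slc38a4, and the 9 list genes that were called kept their direction. The cause of these differences was not tested.

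The labels share the replicate numbers 3 and 4 between groups, and what the numbers stand for is not stated. Across genes, deviations from the group means were not correlated between same-numbered tumors (-0.03 and -0.07). Deviations from means of 3 tumors cannot show whether same-numbered tumors shared a batch or a day. With the replicate block, 125 genes were called (80 up, 45 down), 1 transporter down, and 1 list gene up and 1 down, and Slc38a4 had an adjusted p of 0.52. Tumors whose number is not shared add nothing to the comparison in that fit. It rests on the tumors numbered 3 and 4, and so on fewer tumors than the main test. With 3 tumors per group, genes with few reads could show only large differences.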
